A study of Mus musculus with 10 samples.

Results

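The Kruppel-like factors are zinc finger transcription factors that bind GC-rich and CACCC sequences, and 10 members of the family were followed here in aging muscle: Klf2, Klf3, Klf4, Klf5, Klf6, Klf7, Klf9, Klf10, Klf13 and Klf15. They were named by symbol, and each was represented by the transcript of highest average level, out of 37947 gene symbols and 92251 transcripts listed. All 10 members were above 0 in at least 1 library, and 8 of them had a mean FPKM of at least 1, the level required for the test across transcripts. The study sequenced poly-A RNA of gastrocnemius, the large calf muscle, from 5 young mice (6 months) and 5 aged mice (24 months). All mice were C57BL/6 males, for which no treatment, transgene or deletion is named, and each gave 1 library. Values are log2 FPKM (fragments scaled to transcript length and to the mapped reads of the library), and an FPKM under 1 is listed as 0.

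Several members act early after a stimulus, and others follow hormones or the time of day. KLF2 and KLF4 are known from endothelium, where fluid shear switches them on through the kinases MEK5 and ERK5 and the MEF2 factors. KLF6 and KLF10 respond to injury and to TGF beta, and KLF9 and KLF15 are targets of the glucocorticoid receptor. In skeletal muscle KLF15 is known to drive the breakdown of branched-chain amino acids, and KLF3 is a repressor that recruits the corepressor CTBP. As whole muscle was sequenced, a larger number of cells of a type and more RNA in each cell cannot be told apart.

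The promoters of 3 members whose levels were higher in aged muscle are shown, as those with the largest age differences among the 8 members whose promoter could be read. Each is the 250 bases before the RefSeq start (GRCm38.p6), written 5′ to 3′ on the strand of the gene. They are Klf2 at chr8:72318812-72319061 on the plus strand, Klf4 at chr4:55532476-55532725 on the minus strand and Klf6 at chr13:5861239-5861488 on the plus strand. Capitals mark a match to a MEF2 site in Klf2 and the E-box CACGTG in Klf4 and Klf6.
Klf2: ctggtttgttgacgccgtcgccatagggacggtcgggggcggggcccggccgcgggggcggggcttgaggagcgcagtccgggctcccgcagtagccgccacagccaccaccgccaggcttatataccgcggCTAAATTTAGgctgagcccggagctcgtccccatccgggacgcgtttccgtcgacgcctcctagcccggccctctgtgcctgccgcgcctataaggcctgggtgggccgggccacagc
Klf4: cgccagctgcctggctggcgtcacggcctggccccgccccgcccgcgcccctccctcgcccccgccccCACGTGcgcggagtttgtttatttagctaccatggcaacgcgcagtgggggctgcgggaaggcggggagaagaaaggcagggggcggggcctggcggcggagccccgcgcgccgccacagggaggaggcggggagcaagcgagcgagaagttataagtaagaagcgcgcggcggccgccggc
Klf6: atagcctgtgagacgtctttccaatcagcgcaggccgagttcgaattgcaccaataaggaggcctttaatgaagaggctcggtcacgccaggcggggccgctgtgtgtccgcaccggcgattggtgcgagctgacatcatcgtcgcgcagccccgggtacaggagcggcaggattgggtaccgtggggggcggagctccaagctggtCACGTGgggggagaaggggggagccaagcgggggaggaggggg

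The MEF2 match of Klf2 lay 118 to 109 bases before the start, and 2.92% of 32851 mouse promoters of this length held such a match on either strand. The E-box lay 182 to 177 bases before the start in Klf4 and 43 to 38 bases before it in Klf6, and 6.02% of promoters held it. Klf15 held 2 E-boxes, whereas the promoters of Klf2, Klf3, Klf7, Klf9 and Klf13 held 0. The GC box GGGCGG, a motif of the kind that KLF and SP proteins bind, was present 2 times in Klf2, 4 times in Klf4, 6 times in Klf3, 3 times in Klf13 and 1 time in each of Klf6, Klf7 and Klf15. Klf9 was the only promoter of the 8 read without it, and 32.7% of all promoters held it. No match was found in these 8 windows for the CArG box of serum response factor, the cAMP response element TGACGTCA or the CACCC box CCACACCC, held by 1.47%, 1.55% and 3.20% of promoters. The CCAAT box CCAAT was found 4 times in Klf6, 3 times in Klf9, 2 times in Klf13 and 1 time in Klf15, and in 33.8% of promoters. These matches describe letters only, and the promoters of Klf5 and Klf10 were not analysed here.

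Depths recovered from the steps between low values were 19.9 to 34.6 M mapped reads per library. The libraries numbered 3 stood apart in both ages. They were the deepest, yet had values above 0 for 35024 transcripts in young and 29878 in aged muscle, against 38855 to 43296 in the other 8 libraries. When genes were split into 5 bins of GC content, the median deviation of aged library 3 from the other aged libraries was -0.81 (log2) in the lowest bin and 0.05 in the highest. In young library 3 the corresponding deviations were -0.38 and 0.36. Over 5 bins of transcript length they ran the other way, from 0.31 in the shortest to -0.74 in the longest bin for aged library 3, and from 0.36 to -0.40 for young library 3. The part of this in the levels of the members was not tested beyond the values given here, and the result of each member is also given without both libraries. Among the checks of tissue identity, the 7 muscle fiber markers were all tested and summed to an FPKM of 103169.1 to 121517.8 in young and 87840.6 to 122340.4 in aged libraries. The epidermal keratins Krt1, Krt5 and Krt14 were at 0 in every library, and Krt10 was at 0 in 8 of 10. Of the satellite cell markers, Pax7, Myf5 and Calcr were at 0 in every library, and Cdh15 was at 2.17 ± 0.25 in young and 2.22 ± 0.15 in aged muscle (SD, n = 5 each).

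Klf9, Klf15 and Klf2 had the highest levels. Over all 10 libraries the mean levels were 4.40 for Klf9, 3.48 for Klf15, 3.03 for Klf2, 2.66 for Klf6, 2.26 for Klf10, 2.13 for Klf4 and 1.94 for Klf13 on the log2 FPKM scale. Klf3, Klf7 and Klf5 lay close to an FPKM of 1, under which values are listed as 0, as they were in some libraries. Between neighbors in this order, the mean difference exceeded its SD over libraries at 2 steps. Klf9 was above Klf15 by 0.91 ± 0.67 (SD, n = 10), in 8 of 10 libraries, and Klf13 was above Klf3 by 1.39 ± 0.52 (SD, n = 10), in 10 of 10. The other 7 steps did not exceed their spread.

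Of the 8 members tested, Klf2, Klf4, Klf6 and Klf10 had higher means in aged muscle, by over 1 on the log2 scale, while the differences of Klf3, Klf9, Klf13 and Klf15 ran from -0.29 to 0.21. No member passed an adjusted p of 0.05 by limma over 38059 transcripts, where 3 transcripts did (0.00788%). With the replicate number as a block, 0 transcripts passed. At an unadjusted limma p under 0.05, 4 of the 8 members were higher and 0 lower, where 6.05% of 10161 genes tested were higher and 0.876% lower. Over all transcripts tested, 1482 were higher and 281 lower at this limit, but 970 and 510 with median of ratios scaling and 881 and 672 with quantile normalization, where 3 members were higher and 0 lower. A difference over 1 was found for the same 4 members and for 1.68% of genes. The median difference of the 8 members was 0.62, and that of all genes tested was 0.07. Counting all 10 members, every aged library lay above every young library for Klf5 and Klf6. Of the 8 members tested this was Klf6 alone, beside 2.08% of the genes tested, as Klf5 was too low to be among them. No member had every aged library below, which held for 0.344% of genes. With both libraries numbered 3 left out, 4 of the 8 members were higher and 0 lower at an unadjusted limma p under 0.05, beside 13.5% of genes higher and 1.38% lower in that fit. In the same fit 0 members passed the adjusted p, which 0.0289% of transcripts passed. Of the 8 members tested, Klf6 and Klf10 then did not overlap, beside 9.92% of the genes tested, and neither did Klf5, which is not among them.

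**Figure D1:**
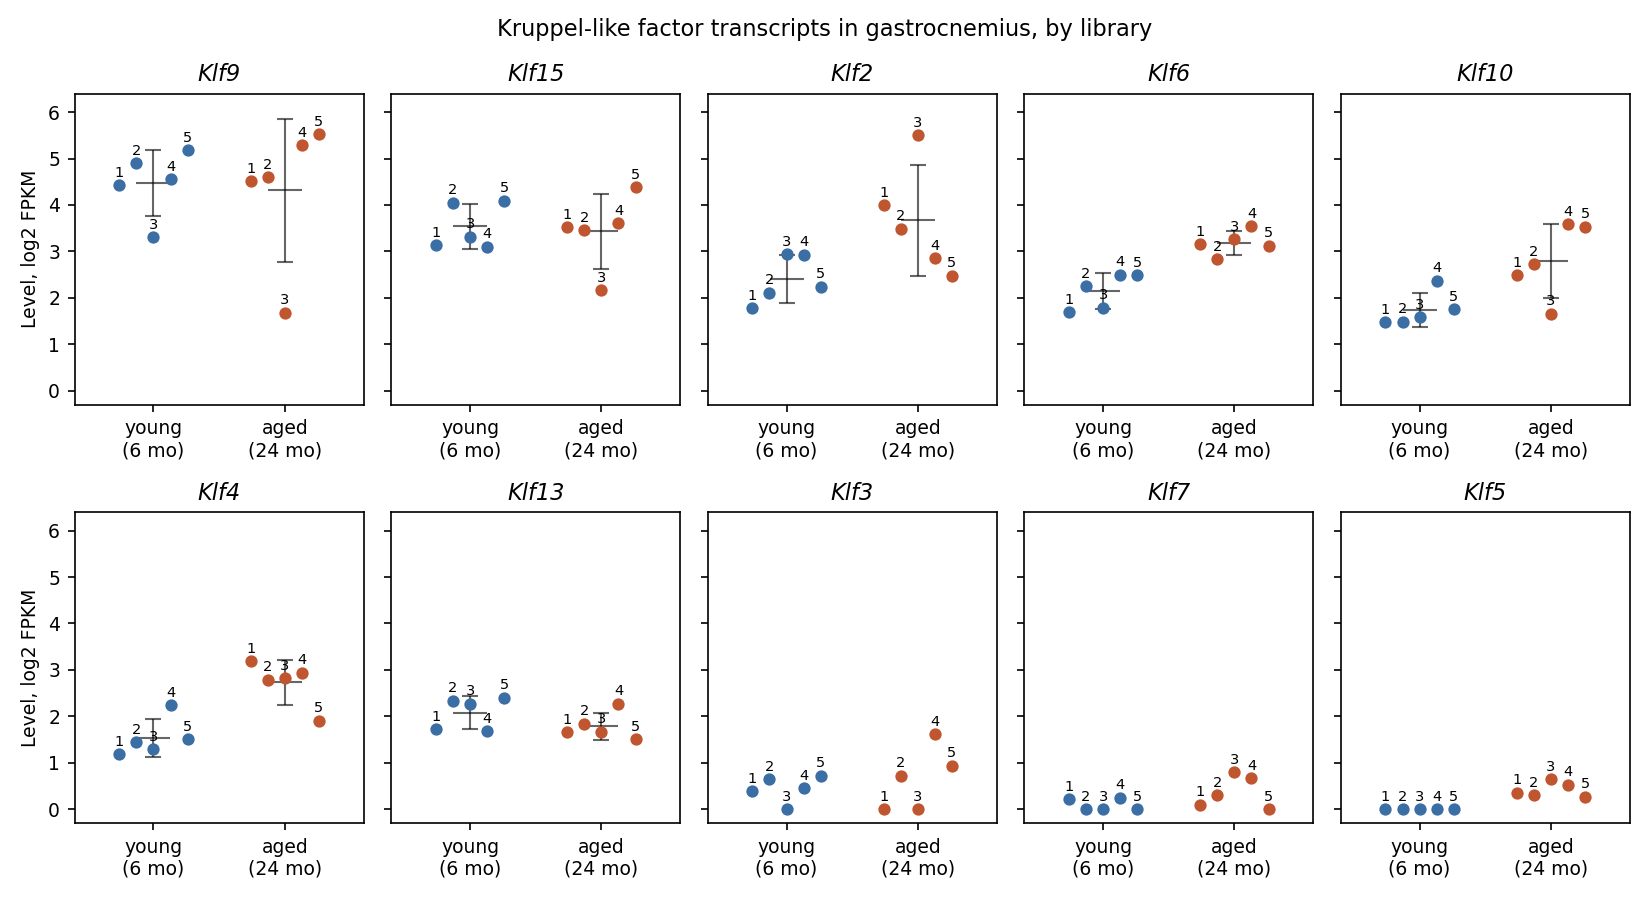
Level of each member in log2 FPKM (vertical axis) in 5 young and 5 aged libraries, ordered by mean level. Points are libraries with their number, and bars are the mean ± SD, drawn only where no library was listed at 0. The aged points of Klf6 and Klf5 sit above all young points, and aged library 3 is the highest for Klf2 (5.51) and the lowest for Klf9 (1.68).

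Klf6, an injury-responsive activator (chr13:5861489-5870393), separated the ages completely. By library number, its young values were 1.69, 2.25, 1.79, 2.50 and 2.49, and its aged values were 3.15, 2.84, 3.27, 3.54 and 3.12. The lowest aged library lay above the highest young library. The means of 2.14 ± 0.38 and 3.19 ± 0.26 (SD, n = 5 each) differed by 1.04 with an SE of 0.21 and a 95% interval of 0.57 to 1.52, or 2.06-fold. The limma adjusted p was 0.439, and the two-sided exact permutation p was 0.00794, the smallest that 5 against 5 can give. The young values rested on 278 to 542 recovered reads and the aged values on 682 to 1304. The difference was 0.93 without both libraries numbered 3, and the groups did not overlap then either (exact permutation p = 0.0286, the smallest for 4 against 4).

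Klf4, an endothelial and epithelial regulator (chr4:55527137-55532475), was higher in aged muscle in 5 of 5 same-numbered pairs. In order of library number, the young values were 1.19, 1.45, 1.30, 2.24 and 1.51 and the aged values 3.19, 2.79, 2.82, 2.94 and 1.91. The groups overlapped only through aged library 5, which lay below young library 4. The means of 1.54 ± 0.41 and 2.73 ± 0.48 (SD, n = 5 each) differed by 1.19 with an SE of 0.28 and a 95% interval of 0.58 to 1.80, or 2.29-fold. The limma adjusted p was 0.583 and the exact permutation p was 0.0159. Leaving out any 1 library gave differences of 1.08 to 1.40 with exact permutation p of 0.0159 to 0.0238. It was 1.11 when both libraries numbered 3 were left out (exact permutation p = 0.0571).

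Klf4 was listed as 3 transcripts, and the shorter forms did not follow the main form in the libraries numbered 3. The 522-base form and the 859-base form were at 0 in young library 3 and aged library 3, where the main form stood at 1.30 and 2.82. In the other libraries the 522-base form ranged from 0.71 to 1.92 in young and 1.30 to 3.13 in aged muscle, from 17 to 45 and 26 to 121 recovered reads. How reads were divided between these overlapping forms is not given in the sources used here.

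Klf10, the TGF beta inducible early gene (chr15:38291464-38300711), was higher in aged muscle in 5 of 5 pairs, with aged library 3 apart from the rest. Numbered from 1 to 5, the young libraries had 1.48, 1.49, 1.58, 2.37 and 1.75 and the aged libraries had 2.49, 2.73, 1.66, 3.58 and 3.53. Aged library 3 lay within the young range, and the other aged libraries lay above it. The means of 1.73 ± 0.37 and 2.80 ± 0.80 (SD, n = 5 each) differed by 1.07 with an SE of 0.37 and a 95% interval of 0.26 to 1.88, or 2.09-fold. The limma adjusted p was 1 and the exact permutation p was 0.0238. Without aged library 4 or aged library 5 the differences were 0.87 and 0.88, with an exact permutation p of 0.0635 each. With both libraries numbered 3 left out, the difference was 1.31 and the groups did not overlap (exact permutation p = 0.0286).

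Klf2, the shear-responsive endothelial factor (chr8:72319062-72321654), had the largest difference of means among the members over all 10 libraries, a rank that rested on aged library 3. The young values, by library number, were 1.78, 2.11, 2.94, 2.93 and 2.24, and the aged values were 4.00, 3.49, 5.51, 2.85 and 2.48. Aged libraries 4 and 5 lay within the young range, and aged library 3 was the highest of all. The means of 2.40 ± 0.52 and 3.67 ± 1.18 (SD, n = 5 each) differed by 1.27 with an SE of 0.52 and a 95% interval of 0.11 to 2.42, or 2.41-fold, and 4 of 5 pairs were higher in aged muscle. The limma adjusted p was 1 and the exact permutation p was 0.0476. Aged library 3 held 2675 recovered reads of Klf2, and the other libraries held 130 to 627. When that library was left out, the difference was 0.81 (exact permutation p = 0.0873), below those of Klf10 (1.35), Klf4 (1.17) and Klf6 (1.02). The exact permutation p stayed under 0.05 in 2 of the 10 cases of leaving out 1 library, those without aged library 4 (0.0317) or aged library 5 (0.0238), and it reached 0.111 without young library 1 or young library 2. The difference was 0.94 after both libraries numbered 3 were left out (exact permutation p = 0.0857).

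**Figure D2:**
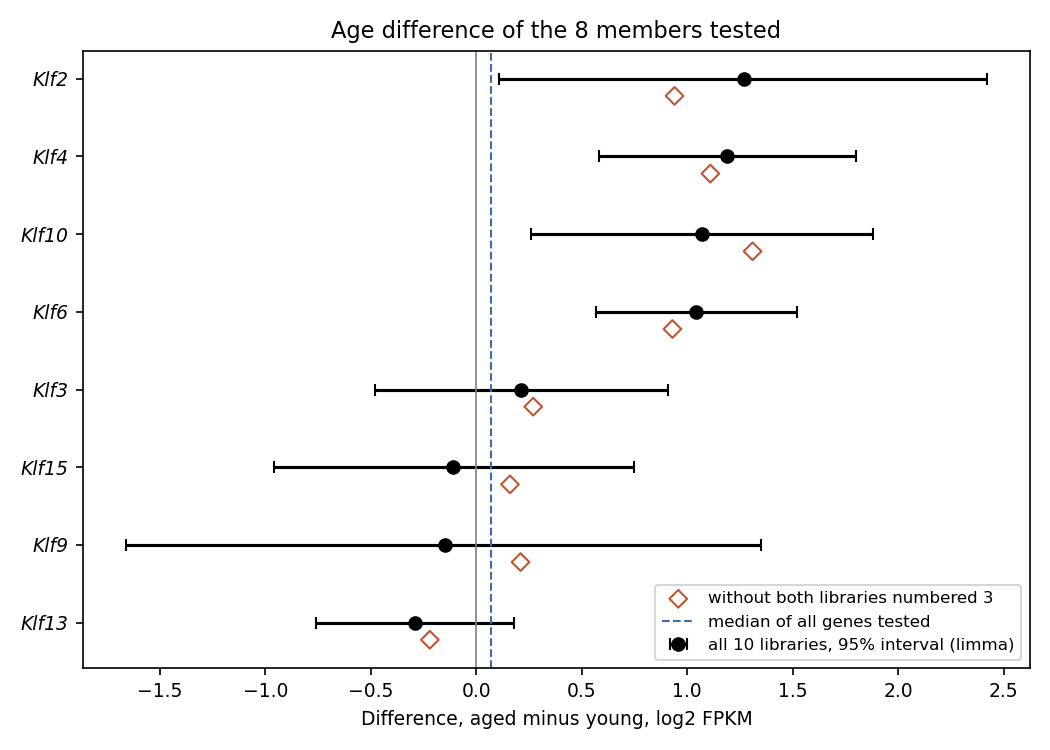
Difference of means, aged minus young, in log2 FPKM (horizontal axis) for the 8 members tested. Black points with bars are the differences over 10 libraries with the 95% limma interval, diamonds are the differences without both libraries numbered 3, and the dashed line is the median of all genes tested (0.07). The intervals of Klf2, Klf4, Klf6 and Klf10 lie above 0, and Klf9 and Klf15 change sign between point and diamond.

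Klf9 and Klf15, the glucocorticoid-responsive members, had the highest levels when averaged over all 10 libraries, although Klf15 and Klf2 did not differ beyond their spread and Klf2 had the higher mean in aged muscle (3.67 against 3.43). Klf9 (chr19:23141226-23168129) had young values of 4.42, 4.90, 3.31, 4.56 and 5.18 and aged values of 4.51, 4.60, 1.68, 5.29 and 5.52, by library number. Its lowest value in each age was in library 3, and the groups overlapped. The means of 4.47 ± 0.72 and 4.32 ± 1.54 (SD, n = 5 each) differed by -0.15 with a 95% interval of -1.66 to 1.35 (exact permutation p = 0.881). Leaving out both libraries numbered 3 gave means of 4.77 ± 0.34 and 4.98 ± 0.50 (SD, n = 4 each), a difference of 0.21 with an exact permutation p of 0.486.

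Klf15 (chr6:90461043-90491803) had young values of 3.13, 4.05, 3.32, 3.10 and 4.09 and aged values of 3.52, 3.46, 2.17, 3.61 and 4.39 in the same order. Aged library 3 was the lowest and aged library 5 the highest of all. The means of 3.54 ± 0.49 and 3.43 ± 0.80 (SD, n = 5 each) differed by -0.11 with a 95% interval of -0.96 to 0.75 (exact permutation p = 0.802). After leaving out both libraries numbered 3 the difference was 0.16 (exact permutation p = 0.771). Klf15 was listed as 2 transcripts whose values differed by at most 0.06 in any library. Their recovered reads were nearly equal, at 423 and 407 in young library 1 and 1008 and 978 in aged library 5. How shared reads were assigned to them is not given in the sources used here.

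Klf13 (chr7:63886351-63938915), known from T cells and heart, had the lowest difference of the members. By library number, its young values were 1.72, 2.34, 2.27, 1.68 and 2.40 and its aged values 1.66, 1.84, 1.67, 2.27 and 1.51. The groups overlapped, and 1 of 5 pairs was higher in aged muscle. The means of 2.08 ± 0.35 and 1.79 ± 0.29 (SD, n = 5 each) differed by -0.29 with a 95% interval of -0.76 to 0.18 (exact permutation p = 0.159). It was -0.22 with both libraries numbered 3 left out (exact permutation p = 0.371).

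The remaining members lay near an FPKM of 1, under which values are listed as 0 whatever their reads. Klf5 (chr14:99298691-99313412), a regulator of smooth muscle and of muscle differentiation, was 0 in each of the 5 young libraries, and its aged values by library number were 0.36, 0.30, 0.65, 0.53 and 0.27. All aged libraries lay above all young libraries (exact permutation p = 0.00794), also with both libraries numbered 3 left out. Its aged FPKM ran from 1.21 to 1.57, and no fold is given against a group listed at 0. Klf5 had a mean FPKM of 0.674 and was not among the transcripts tested. With no filter on low values its limma adjusted p was 0.415.

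Klf7 (chr1:64029448-64122345), a neuronal factor, had young values of 0.21, 0, 0, 0.25 and 0 and aged values of 0.10, 0.30, 0.80, 0.67 and 0 by library number. The groups overlapped, and the exact permutation p was 0.159, and 0.457 with both libraries numbered 3 left out. The repressor Klf3 (chr5:64803521-64832901) had young values of 0.39, 0.65, 0, 0.45 and 0.72 and aged values of 0, 0.72, 0, 1.62 and 0.94. It was at 0 in both libraries numbered 3, and the groups overlapped (exact permutation p = 0.587, and 0.543 without those libraries).

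Klf2 had the highest GC content of the members, 61.6%, and Klf6 the lowest, 42.4%. The deviation of aged library 3 from the mean of the other aged libraries was 2.31 for Klf2, -3.30 for Klf9, -1.57 for Klf15 and -1.43 for Klf10, whereas it was 0.12 for Klf4 and 0.11 for Klf6. After each library was centered within 10 bins of GC content, the differences between ages were 1.26 for Klf2, 1.13 for Klf4, 0.95 for Klf6 and 1.00 for Klf10. The exact permutation p were 0.0476, 0.0159, 0.00794 and 0.0159 in the same order, and Klf2 in aged library 3 stayed the highest of all libraries at 5.42. This centering was chosen after seeing the data, and no centering on transcript length was made.

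**Figure D3:**
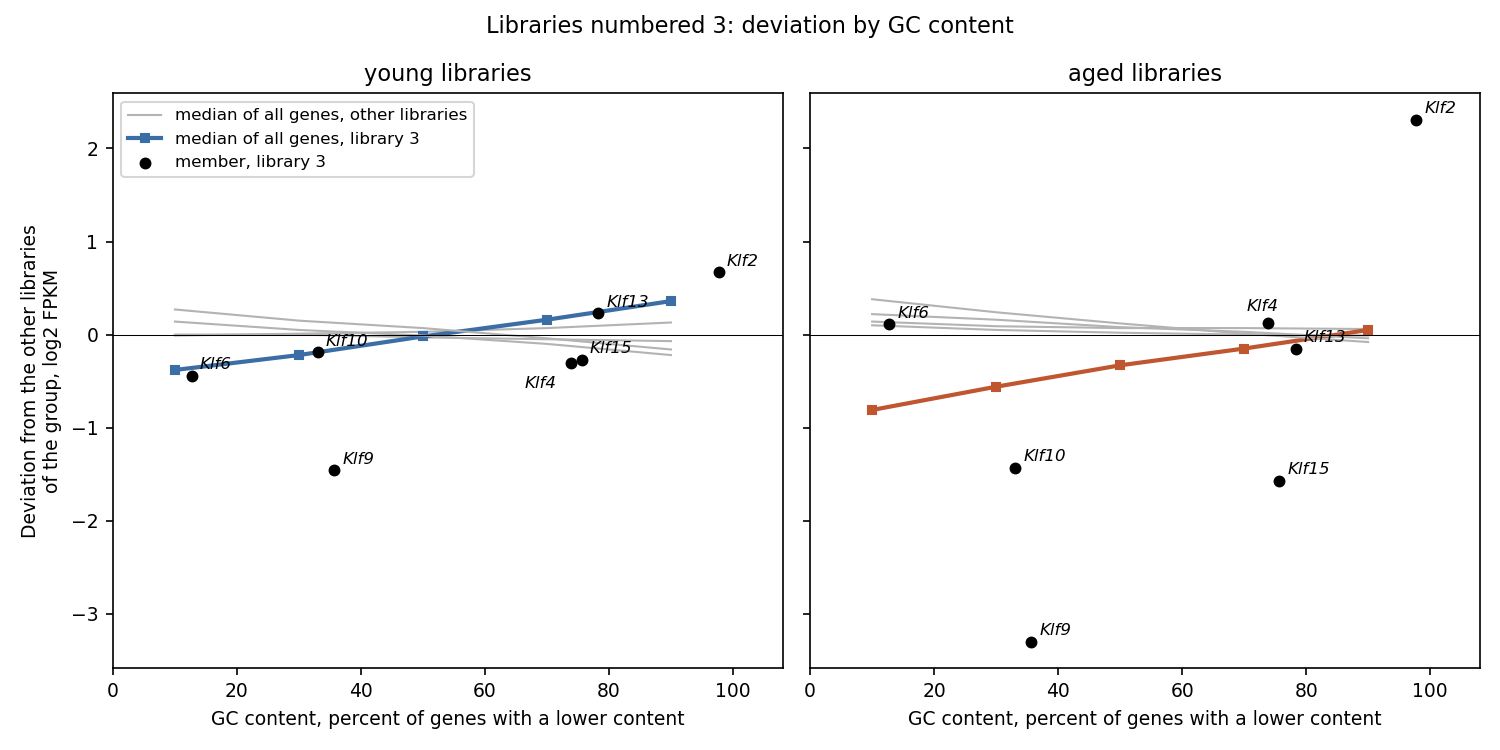
Deviation from the other libraries of the same age in log2 FPKM (vertical axis) against the percent of genes with a lower GC content (horizontal axis). Lines are medians of all genes in 5 bins of GC content, the colored line for library 3 and gray lines for the others, and black points are members in library 3. The colored line runs from -0.81 to 0.05 in aged muscle, and Klf2, Klf9, Klf10 and Klf15 lie over 1 from 0 there.

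Outside these members, 7 Klf genes were listed. Klf1, Klf8, Klf14 and Klf17 were at 0 in all libraries. Klf16 was at 0 in all young libraries, and its aged values by library number were 0.34, 0.19, 1.57, 0.31 and 0.24. Klf11, a relative of Klf10, was listed at up to 0.28 in young and at 0.12 to 0.85 in aged libraries, with an overlap through aged library 3 (exact permutation p = 0.0159). Klf12 was above 0 in aged library 4 alone. Of the 4 tested genes among the other KLF and SP factors, 1 was higher with an unadjusted p under 0.05, beside 6.05% of all genes. This was Sp1, a general activator that binds GC boxes, at 0.63 ± 0.17 in young and 1.01 ± 0.21 in aged muscle (SD, n = 5 each). Its groups did not overlap, with every aged library above, as held for 2.08% of all genes. With median of ratios scaling Sp1 had an unadjusted p over 0.05. Sp9, Sp3 and Sp2 differed by 0.36, 0.20 and -0.05, or by 0.45, 0.57 and 0.04 without aged library 3. Without both libraries numbered 3 they differed by 0.52, 0.35 and 0.01.

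Around the family, the immediate early genes had the highest median difference of the 8 lists of related genes. Over all 10 libraries it lay below that of the macrophage markers given further on. Without both libraries numbered 3 it lay above (1.07 against 1.04). Of 18 tested immediate early genes, 11 were higher in aged muscle at an unadjusted limma p under 0.05, 0 were lower, and 4 did not overlap between ages, beside 6.05%, 0.876% and 2.08% of all genes tested. Their median difference was 0.97, and 0 passed the adjusted p. With both libraries numbered 3 left out, 11 were higher, 8 did not overlap, and the median was 1.07, beside 13.5% of all genes higher and 9.92% without overlap. Egr1, which encodes a zinc finger factor induced by growth signals, was at 0.23 to 5.88 in aged libraries against 0 to 1.34 in young. Junb, a component of AP-1, had means of 1.59 ± 0.30 and 3.93 ± 0.92 (SD, n = 5 each) without overlap (limma adjusted p = 0.273). Fos, its partner, was at 0 to 3.37 in aged and 0 to 0.63 in young libraries. Egr1 and Fos, with a mean FPKM of 0.737 and 0.799 in young muscle, entered the test only through their aged values, and the other 9 of the 11 did not. The antiproliferative gene Btg2 differed by 1.72 without overlap (limma adjusted p = 0.272). Aged library 3 was the highest aged library for Egr1 (5.88), Junb (5.26) and Btg2 (4.23), as it was for Klf2, whereas Fos was at 0 there.

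**Figure D4:**
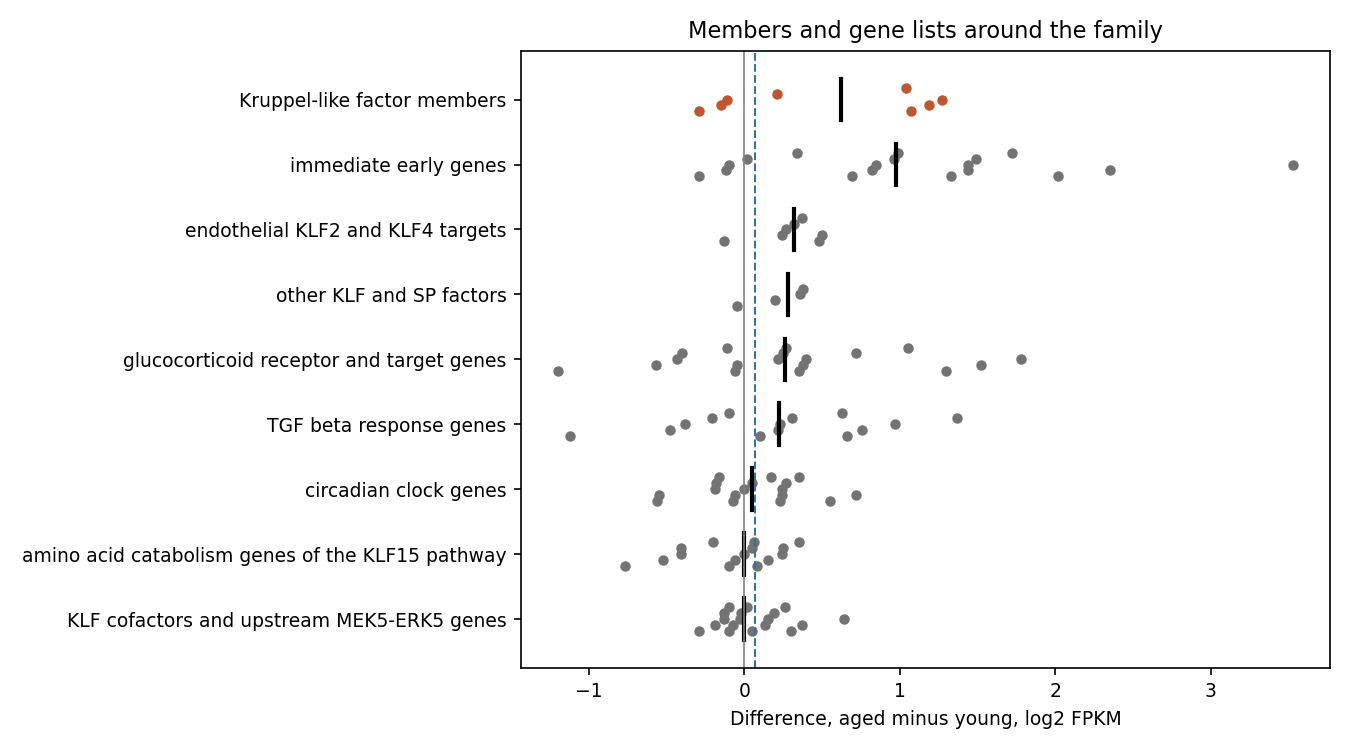
Difference of means, aged minus young, in log2 FPKM (horizontal axis) for the tested genes of the family and of 8 lists (rows). Points are genes, black ticks are list medians, and the dashed line is the median of all genes tested (0.07). The members fall into a group of 4 above 1 and a group of 4 near 0, and the immediate early genes have the highest list median (0.97).

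The factors that act on KLF genes or proteins included the MEF2 genes and the corepressors. Of 18 tested cofactors and upstream MEK5-ERK5 genes, 2 were higher and 0 lower at an unadjusted p under 0.05, beside 6.05% and 0.876% of all genes, with a median difference of 0.00 (0.13 without both libraries numbered 3). Fbxw7, a subunit of the ubiquitin ligase that marks KLF2 and KLF5 for degradation, differed by 0.64, and Sin3b, a corepressor, by 0.37. Hdac2 and Sin3a, with which KLF repressors work, differed by 0.30 and -0.29, or by 0.08 and 0.16 without aged library 3, where Sin3a was at 0. Without both libraries numbered 3 Hdac2 and Sin3a differed by 0.16 and 0.05. With median of ratios scaling, 1 gene of this list was higher at that limit.

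Genes downstream of KLF2 and KLF4 in endothelium were tested as well. Of 7 tested, 0 were higher or lower at an unadjusted limma p under 0.05, beside 6.05% and 0.876% of all genes, and their median difference was 0.32. With the replicate block 2 were higher, in a fit where the transcripts called higher rose from 1482 to 2579. Without both libraries numbered 3, 1 was higher, beside 13.5% of all genes. Plat (tissue plasminogen activator), Angpt2 (a vessel growth ligand), Thbd (thrombomodulin) and Nos3 (endothelial nitric oxide synthase) differed by 0.50, 0.48, 0.37 and 0.32. All 9 endothelial markers were tested, 0 passed an unadjusted limma p under 0.05 (1 was higher with the replicate block), the median difference was 0.21, and none of the defining markers was at 0. Their summed FPKM was 71 to 93.9 in young and 81.9 to 120.1 in aged libraries, with library 3 highest in both ages.

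Of the 8 macrophage markers, 5 were tested. Of these 5, 2 (Cd68 and Lyz2) were higher and 0 lower at an unadjusted limma p under 0.05, beside 6.05% and 0.876% of all genes. With the replicate block 3 were higher, in a fit where the transcripts called higher rose from 1482 to 2579. The median difference was 1.22 (1.04 without both libraries numbered 3). The summed FPKM of the 8 markers was 14.9 to 38.8 in young and 27.7 to 120.4 in aged libraries. Emr1 and Itgam, which define macrophages, were at 0 in 9 of 10 libraries each. Cd68 and Cd163 had a mean FPKM of 0.245 and 0.716 in young muscle, so they entered the test only through their aged values. Neither bears on the direction, although the median of 1.22 includes both. KLF2, KLF4 and KLF6 are also known from these cells, and the part of macrophages in the differences of the members was not tested. Blood cell markers (4 tested) had a median difference of 0.32, adipocyte markers (5 tested) 0.25 (0.53 without both libraries numbered 3), smooth muscle and pericyte markers (5 tested) 0.02, and fibroblast markers (6 tested) -0.36. Adipocyte markers had 0 genes past an unadjusted limma p of 0.05, against 2 higher with the replicate block. Without both libraries numbered 3, 1 adipocyte marker was higher, beside 13.5% of all genes. In the fibroblast list 3 means were higher and 3 lower in aged muscle. The collagen Col3a1 was the 1 marker lower at an unadjusted limma p under 0.05, with a difference of -1.03, beside 0.876% of all genes. With the replicate block 2 were lower. Without both libraries numbered 3, 3 were lower and 1 higher, beside 1.38% and 13.5% of all genes.

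The TGF beta response genes, which relate to Klf10 and Klf6, were mixed. Of 14 tested, 3 were higher and 0 lower at an unadjusted p under 0.05 (3 and 1 with the replicate block), beside 6.05% and 0.876% of all genes, with a median difference of 0.23. These counts were 6 and 1 without both libraries numbered 3, with a median of 0.37. In that fit the share of all genes called also rose (13.5% higher and 1.38% lower). The inhibitor of differentiation Id1 differed by 0.97. The ligand Tgfb1 differed by 0.76 (0.50 without aged library 3 and 0.60 without both libraries numbered 3), while the collagen Col1a1 differed by -1.12 with overlap. Col1a1 had an unadjusted limma p of 0.0694.

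Klf9 and Klf15 belong to hormonal and circadian pathways. The time of day at which muscle was taken is not given in the sources used here, and its part in these values was not tested. Of 18 tested glucocorticoid receptor and target genes, 1 was higher and 0 lower at an unadjusted p under 0.05, with a median of 0.26. Among all genes tested 6.05% were higher and 0.876% lower. With the replicate block 3 genes of the list were higher, in a fit where the transcripts called higher rose from 1482 to 2579. Without both libraries numbered 3 there were 2, beside 13.5% of all genes, and the median of the list was 0.51. Errfi1, an inhibitor of the EGF receptor, was the 1 gene of the list without overlap, beside 2.08% of all genes. Its means were 2.74 ± 0.38 and 4.26 ± 0.87 (SD, n = 5 each). The metallothioneins Mt2 and Mt1 differed by 1.78 and 1.30 and the cochaperone Fkbp5 by -1.20, each with overlap. Without aged library 3 they differed by 1.01, 0.64 and -0.42, and without both libraries numbered 3 by 1.54, 1.08 and -0.38. Of 17 tested circadian clock genes, 0 were higher or lower at that limit (1 higher and 1 lower with the block), with a median of 0.05, or 0.24 without both libraries numbered 3. The clock repressors Bhlhe40, Bhlhe41 and Cry2 differed by 0.72, -0.56 and 0.55, and the clock output factor Hlf by -0.55. Without aged library 3 Bhlhe41 and Hlf differed by -0.13 and -0.19, and without both libraries numbered 3 by -0.38 and -0.59.

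Among 15 tested amino acid catabolism genes of the KLF15 pathway, 0 were higher and 1 lower at an unadjusted p under 0.05. These counts stand beside 6.05% and 0.876% of all genes, and the median was 0.00. With the block, a fit that called more transcripts in general, 1 was higher. Without both libraries numbered 3 there were 0 in either direction, beside 13.5% of all genes higher and 1.38% lower. The gene that was lower was Prodh (proline dehydrogenase), at 1.75 ± 0.67 and 0.98 ± 0.46 (SD, n = 5 each). Gpt2, an alanine transaminase, differed by -0.52, and Bcat2 and Mccc1, of branched-chain amino acid breakdown, by -0.41 each. Without aged library 3 these differences were -0.02 for Gpt2, -0.02 for Bcat2 and 0.17 for Mccc1. Without both libraries numbered 3 they were -0.12, -0.07 and 0.03 in the same order. Aged library 3, which was lowest for Klf15, was also lowest for Gpt2 (3.85), Bcat2 (3.75) and Mccc1 (1.33). Not every gene of the list followed, as Prodh was at 0.89 there and at 0.39 in its lowest aged library. This library was also low for many genes outside the list, as its median deviations by GC content show.

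The genes whose levels were most like those of Klf2 over the 10 libraries were Tceb1, Zfp260, Sec61g, Swi5 and Tra2a, with Pearson r of 0.98 to 0.957. Over the 8 libraries other than those numbered 3, r was 0.964 for Tceb1, 0.939 for Zfp260, 0.948 for Sec61g, 0.93 for Swi5 and 0.906 for Tra2a. Their range over libraries was narrower than that of Klf2, from 5.29 to 5.77 for Tceb1 and from 2.35 to 3.88 for Zfp260, against 1.78 to 5.51 for Klf2. Those most like Klf13 were Gpr146 (r of 0.946), Ppp1r3c (0.906), Prkcd (0.897), Slc25a30 (0.861) and Cyb5d2 (0.854), and without the libraries numbered 3 r was 0.851 to 0.936. These values describe the highest of 10161 genes over libraries that share depth and composition, and no test was made.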

How the data were processed

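Paired-end reads of poly-A RNA were aligned by TopHat2 and Bowtie2 to mm10, and the authors deposited log2 FPKM for each transcript and library without pooling. The program that counted reads is not given in the sources used here. Values were used as deposited. The methods describe RefSeq genes, while rows carry Ensembl and Vega transcript names. Groups came from the ages in the labels. The labels do not say whether a number marks a shared day or batch. limma 3.58.1 (R 4.3.3, lmFit and eBayes) was fitted to the 38059 transcripts whose mean FPKM reached 1, values at 0 counting as 0, and p-values were adjusted by Benjamini-Hochberg. Each member was also compared by an exact permutation test, two-sided and unadjusted (Python 3.11.15). Depth was recovered from the steps between low values, where an FPKM of 1 on 1 kb stands for 19.9 to 34.6 reads, and was used only to describe precision. Positions and promoters were from RefSeq (GRCm38.p6, 10 of 10 symbols with a position and 8 with a promoter), and GC content was from GENCODE, for 93.8% of 10161 genes. The fit was tested on simulated data.

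Members and lists were chosen with earlier results of these data known. All members are named. From each list the text names at most the 4 genes with the largest absolute difference, and for Klf2 and Klf13 the 5 genes with the highest r. The markers Cd68, Cd163, Lyz2, Col3a1, Cdh15 and Krt10 and the other Klf genes were named after their values were seen. The values of 1 gene of these lists are not reported here. Libraries of both ages that carry 1 number deviated together (correlations of 0.131, 0.332, 0.695, 0.390 and 0.208 for numbers 1 to 5, mean 0.351, against -0.0376 for other combinations), so the number was also used as a replicate block, although the mice differ. Alternatives were other pseudocounts, scalings, filters and fits, and leaving out libraries.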

Additional observations from a re-analysis of the deposited data

Results flagged for a closer look

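Among 19 groups of 5 libraries examined for a sample far from the others, 1 stood out, and chance gives about 5% of groups. Klf9 in aged library 3 was at 1.68, and its gap to the next aged library was 0.737 of the range of the group. This library held 332 recovered reads of Klf9, and the other aged libraries held 1576 to 3390.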

How the results depend on the processing

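Across the alternatives, the differences of Klf2 (0.81 to 1.62), Klf4 (0.97 to 1.40), Klf6 (0.89 to 1.13), Klf10 (0.87 to 1.35), Klf7 (0.16 to 0.38) and Klf13 (-0.41 to -0.21) kept their direction, and no member passed an adjusted p of 0.05 by limma in any fit, the lowest being 0.167 for Klf10. The members higher at an unadjusted p under 0.05 were 3 to 5 throughout, and 4 with the replicate block, which changed no call of a member. Directions near 0 turned. Without 1 library, Klf9 ran from -0.45 to 0.51 and Klf15 from -0.35 to 0.21. Klf3 was -0.03 without aged library 4. Klf9 was 0.02 without young library 5, 0.51 without aged library 3, 0.21 without both libraries numbered 3 and 0.16 as the log2 ratio of mean FPKM. Klf15 was 0.02 without young library 2, 0.03 without young library 5, 0.21 without aged library 3 and 0.16 without both libraries numbered 3. The cause was not tested.

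The transcripts higher at an adjusted p of 0.05 by limma numbered 3, with 1482 higher and 281 lower at an unadjusted p under 0.05. The latter counts were 970 and 510 with median of ratios, 881 and 672 with quantile normalization, 2579 and 531 with the replicate block, and 4371 and 420 without both libraries numbered 3. The count of 3 at the adjusted p became 0 with median of ratios, quantile normalization or the replicate block, 10 with 1 transcript for each gene, 11 without both libraries numbered 3, and 0 to 23 without 1 library (23 without aged library 3, 11 without aged library 5). The 2-fold criteria of the study's methods (a difference over 1 and an unadjusted p under 0.05 by its own equal-variance comparison of 2 groups rather than by limma) gave 218 higher and 35 lower, with Klf4, Klf6 and Klf10 among the higher. The median difference of all genes was 0.07, 0.03 with median of ratios and 0.14 without both libraries numbered 3. Levels under an FPKM of 1 are listed as 0 and cannot be told from absence, which limits Klf3, Klf5 and Klf7.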
